A study of Rattus norvegicus with 18 samples.

Results

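The solute carrier genes, named Slc with a family number and a member number, code for membrane proteins that move amino acids, sugars, ions, metals, vitamins, nucleosides and mitochondrial metabolites. The deposited table lists 1 transcript per row, and its 196 rows with a gene name of this form were taken as members, out of 13416 rows in all. They cover 189 gene symbols, of which 7 have 2 transcripts each. Of the 196 entries, 192 are carriers. The other 4 carry such a name through a partner or a neighbouring gene (Slc9a3r1, Slc9a3r2, Slc4a1ap and Slc7a6os). By substrate there were 42 entries of amino acid, peptide and neurotransmitter carriers, 33 of the mitochondrial family Slc25, 28 of inorganic ion carriers, 24 of metal carriers, 24 of organic ion and monocarboxylate carriers, 15 of sugar carriers, 14 of vitamin, choline, lipid and haem carriers, 9 of nucleoside and nucleotide-sugar carriers and 3 of vesicular and lysosomal carriers.

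The sciatic nerve of Sprague Dawley (SD) rats was crushed, and 7 days later axoplasm, the fluid content of nerve fibres, was squeezed from the nerve proximal to the injury into an isotonic buffer without detergent. RNA-binding proteins were then precipitated with their RNA (RNA immunoprecipitation, RIP) with an antibody to La/SSB or to one of the nuclear ribonucleoproteins hnRNP F, hnRNP H1 and hnRNP K, or with a FLAG antibody as the control, and unprecipitated axoplasm RNA was sequenced as Input. Each of the 6 groups held 3 libraries, 18 in all, and the strain, the injury and the time after it were common to every group, with no uninjured nerve among them. The labels do not say whether the 3 libraries of a group came from separate animals or pools, so p-values measure the spread between these libraries, which may be technical.

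Most solute carriers span the membrane many times, so their mRNAs are translated on the endoplasmic reticulum or, for most Slc25 members, on free ribosomes before import into mitochondria. In peripheral nerve, carriers at the surface of axons and Schwann cells take up glucose, lactate, amino acids and choline, and ion carriers set chloride, pH and phosphate. hnRNP H1 and hnRNP F are close paralogues that bind G-rich RNA, hnRNP K binds C-rich RNA, and La/SSB binds U-rich ends of small RNAs and also mRNAs. No sequence is printed because mRNA and protein sequences were not used here.

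The libraries held 4610750 to 16754262 reads, counted after removal of the 1 that had been added to every value of the table. The FLAG libraries differed most among themselves: the median SD of log2 CPM (reads scaled to the library total) over the Slc entries was 1.35 in FLAG RIP, against 0.35 to 0.77 in the other groups, and FLAG RIP 1 and 3 had 32 and 35 Slc entries at 0 reads where FLAG RIP 2 had 11. In La/SSB RIP 1 no entry had fewer than 10 reads, whereas La/SSB RIP 2 and 3 had 158 and 73 entries at 0. Values of sparse entries in La/SSB RIP 1 thus have this minimum, and such entries may be listed only because they reached it. Rises of sparse entries with La/SSB may therefore not be independent of how the rows were chosen. In RefSeq (GRCr8), which matched all 189 symbols, 48 of these genes share bases with another protein-coding gene, among them Slc31a1 (Fkbp15), Slc35a1 (Rars2), Slc20a2 (Smim19) and Slc13a3 (Elmo2). Input reads fell on fibroblast and perineurial markers (8 genes, 4.8% to 9.58% of reads) and Schwann cell markers (8 genes, 0.284% to 0.355%) far more than on neuronal markers (7 of 8 genes listed, 0.00776% to 0.0104%). None of the listed markers was at 0 in all Input libraries. The fibroblast share was 1.57% to 2.57% in FLAG RIP, 12.1% to 21.5% in hnRNP K RIP, 8.01% to 12.1% in hnRNP H1 RIP, 6.18% to 9.9% in hnRNP F RIP and 5.16% to 7.7% in La/SSB RIP, and its part in the differences below was not tested.

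In Input the most abundant carrier mRNA per length was Slc25a4, the mitochondrial ADP/ATP carrier of muscle and nerve, at 233 ± 29.2 FPKM (fragments per kilobase of transcript, scaled to the library total; SD, n = 3). Slc2a1, the glucose carrier GLUT1, followed at 192 ± 55.8 FPKM, with an SD interval that overlapped that of Slc25a4. The longer Slc44a1 entry, a choline carrier, stood at 106 ± 18.5 FPKM. The next 7 lay closer together: Slc48a1, a haem carrier, the zinc importer Slc39a1, the magnesium carrier Slc41a1, the CMP-sialic acid carrier Slc35a1, the mitochondrial Slc25a16, the lactate carrier Slc16a1 and the amino acid carrier Slc38a2 ranged from 90.9 to 57.1 FPKM, and neighbours in this order did not differ beyond their SDs. The median Slc entry had 7.29 FPKM in Input against 8.18 for all entries, and 36 Slc entries were under 1 FPKM. In these bulk samples fewer cells of a type and less RNA per cell cannot be told apart. Of 41 solute carriers listed as well-known members, 31 had an entry, and the other 10, among them the glutamate carrier Slc1a3 and the iron exporter Slc40a1, were not analysed here.

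The first question was which carrier mRNAs came down with each protein beyond the FLAG control. Solute carriers were more often higher than lower against FLAG RIP with every antibody. The choline carrier Slc44a1 and the taurine carrier Slc6a6 rose with all 4 antibodies and the zinc importer Slc39a1 with the 3 hnRNP antibodies, while the mitochondrial carriers Slc25a5 and Slc25a39 were among those that fell with hnRNP H1. In hnRNP H1 RIP, 56 Slc entries rose and 17 fell at an adjusted p under 0.05 (edgeR's quasi-likelihood test with Benjamini-Hochberg adjustment over the 13227 entries tested). That is 28.6% higher and 8.67% lower, where the background over all tested entries was 18.7% higher and 17.1% lower. In hnRNP F RIP, 55 rose and 18 fell, or 28.1% and 9.18%, against a background of 16.5% and 13.6% (30.2% called in all). In hnRNP K RIP, 64 rose and 15 fell, or 32.7% and 7.65%, against 15.7% and 14.9%. In La/SSB RIP, 33 rose and 7 fell, or 16.8% and 3.57%, against 8.51% and 5.36%. The median log2 fold change over the 196 entries was 0.86 with hnRNP H1, 0.77 with hnRNP F, 1.14 with hnRNP K and 0.78 with La/SSB, where all tested entries had medians from -0.11 to -0.10. All 4 comparisons use the same 3 FLAG libraries, so their calls are not independent of each other. They also share 1 estimate of spread per transcript over all precipitated groups, although FLAG RIP had the widest spread. With only the 2 groups compared in the fit, higher calls were 17.3% with hnRNP H1 (background 11.8%) and 17.5% with hnRNP K (9.36%). With hnRNP F they were 8.86%, near the background of 8.05%. With La/SSB few calls remained (1.08% higher, background 0.308%).

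**Figure D1:**
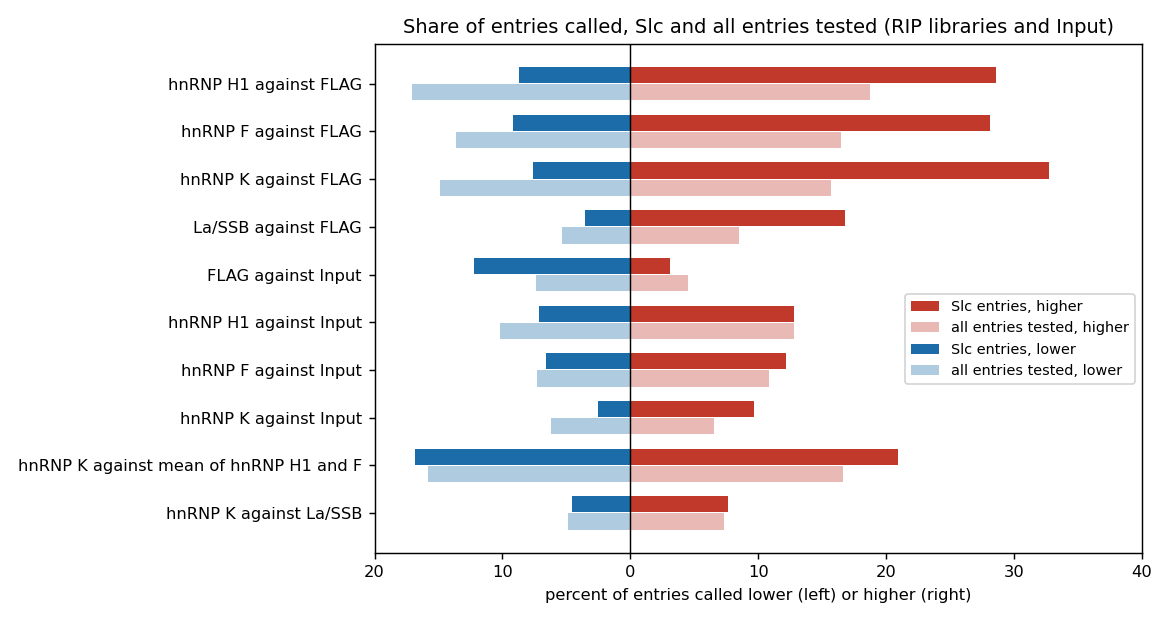
Percent of entries called lower (left of 0) or higher (right of 0) in each comparison, for the 196 Slc entries (dark bars) and for all entries tested (light bars). In each of the 4 comparisons with FLAG RIP the dark bars to the right are longer than the light ones, 32.7% against 15.7% for hnRNP K, and those to the left are shorter.

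Scaling changed this split. With total counts in place of scaling by the trimmed mean of M-values (TMM), the median of all entries against FLAG RIP moved from -0.10 to -0.64 with hnRNP H1, to -0.58 with hnRNP F and to -0.81 with hnRNP K, and from -0.11 to 0.07 with La/SSB. The Slc calls then came to 43 higher and 22 lower with hnRNP H1, 40 and 26 with hnRNP F, 38 and 24 with hnRNP K and 34 and 2 with La/SSB. As shares, 21.9% were then higher and 11.2% lower with hnRNP H1 (background under the same scaling 14.3% and 25.7%), 20.4% and 13.3% with hnRNP F (12.4% and 21.3%), 19.4% and 12.2% with hnRNP K (9.24% and 26.2%) and 17.3% and 1.02% with La/SSB (8.96% and 3.12%). With FLAG RIP 1 and 3 left out together, an alternative chosen after seeing the data, the calls were 47 higher and 8 lower, 42 and 10, 47 and 5, and 15 and 0, in the same order, with a background of 14.4% higher and 9.75% lower, 12.5% and 6.49%, 10.9% and 8.15%, and 2.56% and 0.559% of 13405 entries. When any 1 library was left out, 51 of the 73 calls with hnRNP H1, 44 of 73 with hnRNP F, 42 of 79 with hnRNP K and 10 of 40 with La/SSB were kept in every such fit. The lowest counts in these fits were 46 for hnRNP K, without hnRNP K RIP 1, and 15, 17 and 17 for La/SSB without its libraries 1, 2 and 3; without FLAG RIP 2 the La/SSB count was 62.

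By pattern, 22 of the 196 entries rose in all 4 comparisons with FLAG RIP, where 4.66% of all entries did, and 1 fell in all 4 (background 1.75%). Another 7 of the 196 rose in 1 or more and fell in another (background 3.38%), a share near the background. A further 80 entries passed the test in none, and the share of all entries that did so is not given here. Among the 22 were the taurine carrier Slc6a6, both Slc44a1 entries, the magnesium carrier Slc41a2, the zinc carriers Slc30a7 and Slc30a10, the phosphate carrier Slc20a2, the ascorbate carriers Slc23a1 and Slc23a2, and the monocarboxylate-family members Slc16a4 and Slc16a13. Of the 22, Slc6a6, Slc16a13, Slc28a3, Slc41a2 and the longer Slc44a1 entry, 5 in all, passed in every comparison when any 1 library was left out. Slc3a2, the heavy chain that anchors several amino acid carriers, was the 1 that fell in all 4.

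**Figure D2:**
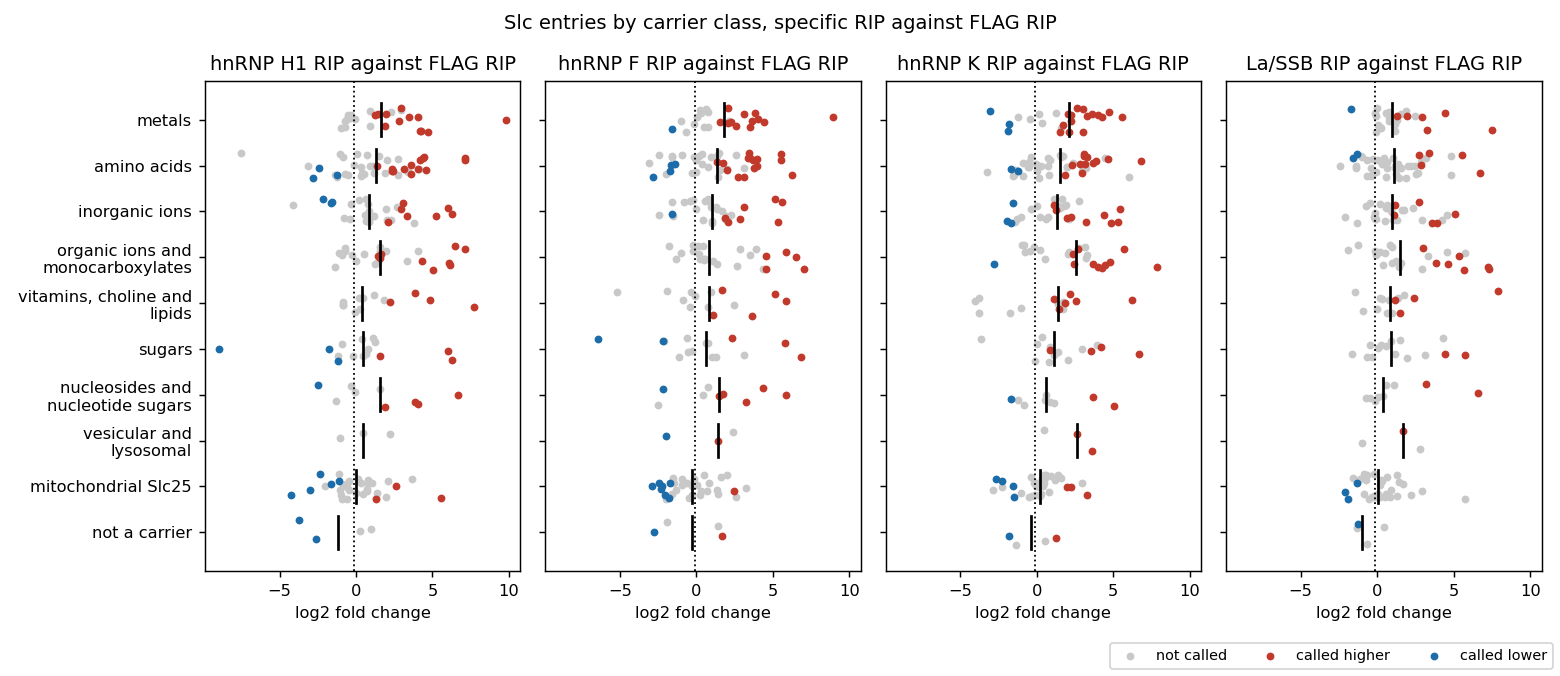
Log2 fold change (horizontal axis) of each Slc entry in each specific RIP against FLAG RIP, by carrier class, with the class median as a short bar and the median of all tested entries as a dotted line. Metal carriers lie mostly to the right, with class medians from 0.97 in La/SSB RIP to 2.11 in hnRNP K RIP, and mitochondrial Slc25 entries lie around 0.

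Of the metal carriers 50% or more were called higher in each of the 3 hnRNP precipitations. Of their 24 entries, 12 rose and 0 fell with hnRNP H1, 12 rose and 1 fell with hnRNP F, 15 rose and 3 fell with hnRNP K, and 6 rose and 1 fell with La/SSB. That is 50%, 50%, 62.5% and 25% higher (background 18.7%, 16.5%, 15.7% and 8.51%). Lower were 0%, 4.17%, 12.5% and 4.17% (background 17.1%, 13.6%, 14.9% and 5.36%). The class median log2 fold change was 1.65, 1.79, 2.11 and 0.97, where all entries had -0.10 or -0.11. Under total-count scaling 11 rose and 0 fell, 11 and 1, 9 and 4, and 7 and 1 in the same order (background 14.3% and 25.7%, 12.4% and 21.3%, 9.24% and 26.2%, and 8.96% and 3.12%). With only the 2 groups compared in the fit these were 9 and 0, 5 and 0, 7 and 3, and 0 and 0 (background 11.8% and 9.71%, 8.05% and 4.48%, 9.36% and 10.4%, and 0.308% and 0.15%). All 12 hnRNP H1 calls, 11 of 13 with hnRNP F, 12 of 18 with hnRNP K and 2 of 7 with La/SSB were kept with any 1 library left out. Summed over the class, metal carriers took 0.101% to 0.111% of reads in the FLAG libraries and 0.192% to 0.266% in the 12 libraries of the specific precipitations, with no overlap.

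Slc39a1, a zinc importer of the plasma membrane on chromosome 2, had 591, 677 and 661 normalised CPM in the 3 hnRNP H1 libraries and 635, 760.2 and 932 CPM in the hnRNP F libraries. In the hnRNP K libraries it had 442, 357 and 287 CPM, in La/SSB RIP 166, 147 and 160.1 CPM, in FLAG RIP 134, 61.8 and 66.9 CPM and in Input 239.8, 168 and 133 CPM. All 9 hnRNP values lay above every FLAG and Input value, with hnRNP H1 and F above hnRNP K. The log2 fold change against FLAG RIP was 2.82 ± 0.32 (SE) for hnRNP H1, 3.097 ± 0.32 for hnRNP F and 2.07 ± 0.31 for hnRNP K, with adjusted p = 4.56e-06, 2.68e-06 and 0.00011. For La/SSB it was 0.79 ± 0.30 (adjusted p = 0.0831).

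Slc31a1, the high-affinity copper importer on chromosome 5, had the same order. Its values were 473, 492 and 499 CPM with hnRNP H1 and 414, 216 and 505 CPM with hnRNP F, then 168, 162 and 189 CPM with hnRNP K. La/SSB RIP, at 45.5 to 62.6 CPM, lay within the FLAG range of 32.9 to 99.3 CPM. Against FLAG RIP the log2 fold change was 2.96 ± 0.39 for hnRNP H1 (adjusted p = 2.18e-05) and 1.54 ± 0.37 for hnRNP K (adjusted p = 0.00491), a call not kept under total-count scaling (adjusted p = 0.0679). Slc31a2, a copper carrier of internal membranes, was higher with hnRNP F (125 to 297 CPM) than in FLAG RIP (34.2 to 105 CPM), by 1.52 ± 0.45 on the log2 scale, and lower with hnRNP K (15.3 to 26.6 CPM), by -1.79 ± 0.45. The hnRNP F call was not kept without FLAG RIP 2 or hnRNP F RIP 3 or under total-count scaling (adjusted p from 0.0501 to 0.068).

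Slc39a7, which releases zinc from the endoplasmic reticulum, split the antibodies. It stood at 160.5, 144 and 144 CPM with hnRNP H1 and 126, 149.9 and 195 CPM with hnRNP F, against 38.2, 35.8 and 35.2 CPM in FLAG RIP. With hnRNP K it fell to 4.09, 5.87 and 2.67 CPM and with La/SSB it was at 18.6, 8.8 and 7.55 CPM. No value of hnRNP H1 or F overlapped any other group, and each hnRNP K value was below every other library. The log2 fold change against FLAG RIP was 1.99 ± 0.41 (adjusted p = 0.00119) for hnRNP H1, 2.06 ± 0.41 for hnRNP F and -3.09 ± 0.43 (adjusted p = 6.61e-05) for hnRNP K. For La/SSB it was -1.69 ± 0.41 (adjusted p = 0.0124), not kept without La/SSB RIP 2 or 3 (adjusted p from 0.0571 to 0.0579). In RefSeq this gene shares bases with Rxrb, and reads of overlapping genes cannot be told apart where the counting did not use strand, and the sources used here do not say whether it did.

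Slc41a1, a sodium-coupled magnesium exporter on chromosome 13, went the other way. Its hnRNP K libraries held 1678, 1426 and 1244 CPM. Every other library held less: 321, 283 and 231 CPM in Input, 106, 184 and 257 in FLAG RIP, 157 to 198 with hnRNP H1, 163 to 175 with hnRNP F and 277 to 381 with La/SSB. The log2 fold change of hnRNP K against FLAG RIP was 3.02 ± 0.30 (adjusted p = 2.77e-06), and no other antibody passed the test. Its paralogue Slc41a2 rose with all 4 antibodies, from 0.346, 18.2 and 4.43 CPM in FLAG RIP to 98.2 to 264 CPM over the 9 hnRNP libraries and 55.8 to 88.4 CPM with La/SSB. Its log2 fold changes were 4.73 ± 0.81, 4.39 ± 0.80, 4.72 ± 0.81 and 3.24 ± 0.76 in the same order.

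Among the other metal carriers, Slc11a2, the ferrous iron carrier DMT1, rose from 0.288, 15.4 and 4.43 CPM in FLAG RIP to 99.6 to 137 CPM with hnRNP H1 and 88.1 to 151 CPM with hnRNP F, by 4.18 ± 0.80 and 4.06 ± 0.80. The zinc carriers Slc39a9 and Slc39a10 rose with hnRNP H1 and hnRNP K, by 1.42 ± 0.34 and 2.65 ± 0.36 for the first and 1.24 ± 0.36 and 1.70 ± 0.37 for the second, whose calls did not pass under total-count scaling (adjusted p = 0.146 and 0.0511). Slc39a14, a zinc and iron importer, rose with hnRNP K to 76.9 to 109 CPM from 2.77 to 31.1 CPM (2.21 ± 0.65), a call not kept without hnRNP K RIP 1 or under total-count scaling (adjusted p from 0.0579 to 0.109). Besides Slc39a7, the zinc-family member Slc30a9 also fell with hnRNP K, to 17 to 21.1 CPM from 46 to 116 CPM (-1.88 ± 0.48, adjusted p = 0.00732). Slc30a1, the zinc exporter of the plasma membrane, had 7.72 to 66.8 CPM in FLAG RIP, 15 to 78.2 CPM over the 12 specific libraries and 30.8 to 51.7 CPM in Input, and did not pass the test with any antibody.

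Amino acid carriers were split. Of 42 entries, 14 rose and 3 fell with hnRNP H1, 15 rose and 4 fell with hnRNP F, 12 rose and 2 fell with hnRNP K, and 5 rose and 2 fell with La/SSB, with medians of 1.28, 1.34, 1.55 and 1.101. As shares, 33.3%, 35.7%, 28.6% and 11.9% were higher (background 18.7%, 16.5%, 15.7% and 8.51%). Falls made up 7.14%, 9.52%, 4.76% and 4.76% (background 17.1%, 13.6%, 14.9% and 5.36%). Slc6a6 rose with all 4 antibodies, Slc7a5 with the 3 hnRNP antibodies and Slc38a7 with hnRNP K, while Slc15a3 rose with hnRNP H1 and F and fell with hnRNP K. Slc3a2 fell with all 4 and Slc1a5 with hnRNP H1, hnRNP F and La/SSB. Under total-count scaling 10 rose and 5 fell, 8 and 4, 7 and 5, and 5 and 0 in the same order (background 14.3% and 25.7%, 12.4% and 21.3%, 9.24% and 26.2%, and 8.96% and 3.12%).

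Slc7a5, the light chain of the exchanger LAT1 that imports large neutral amino acids, and Slc3a2, its heavy chain, are partners in 1 complex, and their mRNAs moved in opposite directions in the hnRNP precipitations. Slc7a5 had 232, 249 and 262 CPM with hnRNP H1, 118, 225 and 164 CPM with hnRNP F and 215, 216 and 176 CPM with hnRNP K. It had 13.5, 29.7 and 0.521 CPM in FLAG RIP, 42.3, 57.7 and 38.9 CPM in Input and 39.3, 80.9 and 48.7 CPM with La/SSB. The 9 hnRNP values lay above all others. The log2 fold changes were 4.06 ± 0.78, 3.51 ± 0.76 and 3.84 ± 0.77 (adjusted p = 0.000707, 0.00231 and 0.00143). Slc3a2 had 104, 56 and 211 CPM in FLAG RIP, 18.4, 53.5 and 32.8 in Input, 19.7, 26.1 and 26.9 with hnRNP H1, 21.6, 20.1 and 12.7 with hnRNP F, 32.8, 43.9 and 35.3 with hnRNP K and 31.4, 52.3 and 48.1 with La/SSB. Each specific RIP value was below the lowest FLAG value, and all but that of hnRNP F RIP 3 lay within the Input range. Its log2 fold changes were -2.41 ± 0.48, -2.80 ± 0.49, -1.71 ± 0.47 and -1.56 ± 0.47 in that order. The hnRNP K call was not kept without FLAG RIP 3 (adjusted p = 0.0751) and the La/SSB call was not kept without FLAG RIP 3 or any La/SSB RIP library or under total-count scaling (adjusted p from 0.0709 to 0.172).

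Slc6a6, the taurine importer on chromosome 4, has 2 entries. The first (ENSRNOT00000012875, 2463 bases) rose with all 4 antibodies, from 9.51, 26 and 16 CPM in FLAG RIP to 286, 486 and 354 CPM with hnRNP H1 and 286, 168 and 261 CPM with hnRNP F. With hnRNP K it had 117, 126 and 107 CPM and with La/SSB 153, 99.5 and 141 CPM, still above the Input range of 63.2 to 79.1 CPM. The log2 fold changes were 4.41 ± 0.41, 3.76 ± 0.39, 2.80 ± 0.38 and 2.89 ± 0.38. The second entry (ENSRNOT00000086982) had 0 to 14.9 CPM over the 18 libraries and passed the test in none of the 4 comparisons. The sources used here do not say how reads shared by 2 transcripts of 1 gene were assigned, so the split between such entries is uncertain.

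Slc15a3, a lysosomal carrier of histidine and small peptides, had 195, 291 and 326 CPM with hnRNP H1 and 194, 273 and 599 CPM with hnRNP F. All 6 values exceeded the FLAG values of 49.5, 44.6 and 58.3 CPM, and the hnRNP K values of 16, 25 and 23.8 CPM lay below them. The log2 fold changes were 2.36 ± 0.38, 2.74 ± 0.38 and -1.22 ± 0.37 (adjusted p = 0.000132, 5.19e-05 and 0.0183), and the fall with hnRNP K was not kept without hnRNP K RIP 1 (adjusted p = 0.0848). In RefSeq Slc15a3 shares bases with Tmem132a.

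Slc38a7, which exports glutamine from lysosomes, went the other way. With hnRNP K it reached 797, 708 and 752 CPM, against 146, 128 and 134 in Input, 21.4, 33.6 and 203 in FLAG RIP, 33.3, 52.3 and 42.6 with hnRNP H1, 55, 72.6 and 90.5 with hnRNP F and 49.6, 125 and 103 with La/SSB. The 3 hnRNP K values were above every other library, and FLAG RIP 3 stood apart from the other FLAG libraries. Against FLAG RIP the log2 fold change was 3.15 ± 0.62 (adjusted p = 0.00116).

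Slc1a5, the glutamine importer ASCT2, fell from 210.1, 124 and 193 CPM in FLAG RIP to 23, 32.7 and 23.8 CPM with hnRNP H1 (-2.78 ± 0.44) and 51.3, 86.3 and 22.8 CPM with hnRNP F (-1.74 ± 0.42). With hnRNP K it had 163 ± 32.1 CPM (SD, n = 3), and all 3 values lay within the FLAG range. Slc1a5 was also called lower with La/SSB, with all 3 values below the FLAG range. That call was not kept in every fit with 1 library left out. Slc7a11, the cystine importer xCT, rose with hnRNP F by 3.45 ± 1.02 and with hnRNP K by 3.31 ± 1.01, the latter call not kept without hnRNP K RIP 1 or under total-count scaling (adjusted p from 0.0525 to 0.0757). Slc38a2, the most abundant amino acid carrier of the Input, had 97.5 to 365 CPM over all 18 libraries and passed the test in no comparison with FLAG RIP. Slc7a1, the arginine importer, had 0 to 38.2 CPM in FLAG RIP and 4.4 to 17.4 CPM over the 12 specific libraries and also passed in none.

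Few mitochondrial Slc25 carriers were called higher with any antibody. Of 33 entries, 3 rose and 5 fell with hnRNP H1, 1 rose and 7 fell with hnRNP F, 3 rose and 4 fell with hnRNP K, and 0 rose and 3 fell with La/SSB. Higher calls thus made up 9.09%, 3.03%, 9.09% and 0% (background 18.7%, 16.5%, 15.7% and 8.51%) and lower calls 15.2%, 21.2%, 12.1% and 9.09% (background 17.1%, 13.6%, 14.9% and 5.36%), so that lower calls were under the background with hnRNP H1 and K and above it with hnRNP F and La/SSB. No test of the difference from other classes was run. The class medians were -0.01, -0.31, 0.23 and 0.07, and under total-count scaling -0.46, -0.80, -0.40 and 0.25. Those that fell with hnRNP H1 or F include the ADP/ATP carriers Slc25a4 and Slc25a5, the citrate carrier Slc25a1, the phosphate carrier Slc25a3 and Slc25a39, which imports glutathione. Of the 8 calls for hnRNP H1, 4 were kept with any 1 library left out, and of those for hnRNP F 2 of 8. Taken as a sum, the class held 0.0877% to 0.0935% of reads with hnRNP H1 and 0.087% to 0.0954% with hnRNP F, below every FLAG library (0.15% to 0.181%) and every Input library (0.134% to 0.16%). With hnRNP K it held 0.119% to 0.149%. These sums are not TMM-scaled and weigh abundant entries such as Slc25a4 most. The class median with hnRNP H1 was not below that of all entries (-0.01 against -0.10), and with hnRNP F it was (-0.31 against -0.10).

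Slc25a5, the ADP/ATP carrier of most tissues on chromosome X, had 78.1, 46.4 and 66.9 CPM in FLAG RIP and 38.9, 41.2 and 69.7 CPM in Input. It fell to 9.46, 10.7 and 4.75 CPM with hnRNP H1 and 9.85, 19.5 and 10.6 CPM with hnRNP F, all below the FLAG and Input values, with log2 fold changes of -2.99 ± 0.56 and -2.299 ± 0.55 (adjusted p = 0.000563 and 0.00436). La/SSB RIP, at 31.2, 67.2 and 93.6 CPM, spanned the FLAG range. Slc25a4, with 286, 267 and 453 CPM in FLAG RIP, fell with hnRNP K to 90.1, 107 and 137 CPM (-1.57 ± 0.33, adjusted p = 0.00212). Slc25a39 fell from 18.7, 48.8 and 42.8 CPM in FLAG RIP to 7.34, 4.12 and 10.8 CPM with hnRNP H1 (-2.35 ± 0.56), while hnRNP K RIP had 58.5, 64 and 69.6 CPM. Slc25a1 fell with hnRNP H1 to 0.163 to 2.88 CPM from 13.7 to 55 CPM (-4.27 ± 1.07, adjusted p = 0.0051). ADP/ATP and phosphate carriers have near-identical copies in mammalian genomes, so their counts are uncertain where reads could be split between copies.

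A few Slc25 members were higher in each hnRNP K library than in any other library. Slc25a23, a calcium-regulated ATP-magnesium and phosphate carrier, had 297, 243 and 261 CPM with hnRNP K and 6.34 to 64.9 CPM over the other 15 libraries. Its paralogue Slc25a24 had 248, 211 and 183 CPM with hnRNP K, 27.5 to 83.5 CPM in the other precipitations and 99.3 to 116 CPM in Input. Slc25a44, a branched-chain amino acid carrier, had 172, 138 and 145 CPM with hnRNP K and 14.5 to 78.2 CPM elsewhere. Against FLAG RIP they rose by 3.28 ± 0.56, 2.21 ± 0.46 and 1.95 ± 0.41. Slc25a23 and Slc25a24 lie outside the rule for named entries and were chosen after their values were seen.

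Inorganic ion carriers rose in 7 of 28 entries with hnRNP H1 (3 fell), 7 with hnRNP F (1 fell), 9 with hnRNP K (3 fell) and 6 with La/SSB (0 fell). That is 25%, 25%, 32.1% and 21.4% higher (background 18.7%, 16.5%, 15.7% and 8.51%). Lower were 10.7%, 3.57%, 10.7% and 0% (background 17.1%, 13.6%, 14.9% and 5.36%). Slc9a7, a sodium-proton exchanger of the trans-Golgi network, rose with hnRNP H1 to 137, 111 and 99.5 CPM from 5.24, 29.2 and 6.57 CPM in FLAG RIP (3.05 ± 0.64), and was chosen after its values were seen. The phosphate importers Slc20a1 and Slc20a2 differed: Slc20a2 rose with hnRNP H1 from 59.5, 51 and 36.1 CPM in FLAG RIP to 194, 196 and 252 CPM (2.08 ± 0.32) and with hnRNP F to 165, 141 and 256 CPM (1.89 ± 0.32), whereas Slc20a1 passed only with hnRNP K, where it fell to 20, 9.82 and 5.51 CPM from 26.3, 43.5 and 48.6 CPM (-1.71 ± 0.49), a call not kept without hnRNP K RIP 2 or 3 (adjusted p from 0.0603 to 0.0693). Slc12a2, the sodium-potassium-chloride importer NKCC1, passed in none of the 4 comparisons, with 4.74 to 47.9 CPM in FLAG RIP and 29.1 to 85.8 CPM in the specific libraries. The bicarbonate carrier Slc4a4 rose with hnRNP K in its longer entry, by 3.24 ± 0.88, to 51.5 to 89.9 CPM from 0.156 to 12 CPM, while its shorter entry did not pass. Slc24a3, a sodium-calcium-potassium exchanger, rose with hnRNP H1, F and K by 6.27 ± 1.22, 5.61 ± 1.18 and 4.83 ± 1.15 from a FLAG mean of 0.454 ± 0.737 CPM.

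Of 15 sugar carrier entries, 3 rose and 3 fell with hnRNP H1, 3 rose and 2 fell with hnRNP F, 4 rose and 0 fell with hnRNP K, and 2 rose and 0 fell with La/SSB. As shares, 20%, 20%, 26.7% and 13.3% were higher (background 18.7%, 16.5%, 15.7% and 8.51%). Falls made up 20%, 13.3%, 0% and 0% (background 17.1%, 13.6%, 14.9% and 5.36%). Both shares were thus near the background with hnRNP H1 and F. Slc2a1, the glucose carrier of the blood-nerve barrier and Schwann cells, had 569.9, 406 and 279 CPM in Input and 286, 181 and 438 CPM in FLAG RIP. With hnRNP H1 it had 143, 127 and 154 CPM, below all of these, and with hnRNP F 224, 173 and 226 CPM. With hnRNP K it had 787, 424 and 443 CPM, and hnRNP K RIP 1 alone lay above the Input range. Against FLAG RIP it fell with hnRNP H1 (-1.15 ± 0.33, adjusted p = 0.0124) and rose with hnRNP K (0.90 ± 0.33, adjusted p = 0.0474). The first call was not kept without FLAG RIP 3 or hnRNP H1 RIP 2 (adjusted p from 0.0503 to 0.0702). The second was not kept without FLAG RIP 1 or 2 or hnRNP K RIP 1 or 3 or under total-count scaling (adjusted p from 0.0512 to 0.662). Endothelial and mural markers (5 of 6 listed genes in the table) took 0.0463% to 0.0593% of reads with hnRNP K, 0.0183% to 0.0201% with hnRNP H1, 0.00667% to 0.0117% in FLAG RIP and 0.0206% to 0.0291% in Input. Schwann cell markers took 0.392% to 0.462%, 0.121% to 0.162%, 0.123% to 0.221% and 0.284% to 0.355% in the same order, and the part of either in the changes of Slc2a1 and the other sugar carriers was not tested. The glucose carriers Slc2a3 of neurons and Slc2a4 of muscle and fat were sparse. Slc2a3 had 0, 1 and 0 reads in the FLAG libraries and 4, 2 and 1 in Input, and Slc2a4 had 0, 1 and 0 and 0, 13 and 12. Both rose with all 4 antibodies, with pooled ratios over FLAG RIP of 196 (95% counting interval 34.2 to 7865) for Slc2a3 with hnRNP F and 176 (95% counting interval 31.1 to 7017) for Slc2a4 with hnRNP K. The Slc2a3 call with hnRNP K was not kept without FLAG RIP 1 or 3 or any hnRNP K RIP library or under total-count scaling (adjusted p from 0.0585 to 0.0979) and that with La/SSB not kept without FLAG RIP 1 or 3 or any La/SSB RIP library or under total-count scaling (adjusted p from 0.0512 to 0.123). The La/SSB call of Slc2a4 was not kept without FLAG RIP 1 or 3 or La/SSB RIP 1 or 2 (adjusted p from 0.0663 to 0.0769). Slc2a12 rose with hnRNP K to 55.5 to 103 CPM from 0.99 to 12.8 CPM (3.55 ± 0.72).

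Organic ion and monocarboxylate carriers rose in 9 of 24 entries with hnRNP H1, 5 with hnRNP F, 10 with hnRNP K and 7 with La/SSB, and the only fall was Slc16a11 with hnRNP K. That is 37.5%, 20.8%, 41.7% and 29.2% higher (background 18.7%, 16.5%, 15.7% and 8.51%). Lower were 0%, 0%, 4.17% and 0% (background 17.1%, 13.6%, 14.9% and 5.36%). Slc16a1, the lactate carrier MCT1, had 206, 98.3 and 94.4 CPM in Input and 106, 15.1 and 47.3 CPM in FLAG RIP. It had 151, 171 and 157 CPM with hnRNP H1, a rise of 1.45 ± 0.51 (adjusted p = 0.0341) that was not kept without FLAG RIP 2 or 3 or any hnRNP H1 RIP library or under total-count scaling (adjusted p from 0.0635 to 0.101). It did not pass with the other antibodies. Slc16a13 rose with all 4, from 3.74, 2.91 and 1.09 CPM in FLAG RIP to 248, 174 and 159 CPM with hnRNP H1, 189, 105 and 169 CPM with hnRNP F, 62.5, 36 and 21.2 CPM with hnRNP K and 51.7, 36.8 and 24.2 CPM with La/SSB. Every specific value lay above every FLAG value, and those of hnRNP H1 and F above every Input value (22.2 to 34 CPM). The log2 fold changes were 6.18 ± 0.60, 5.86 ± 0.59, 3.98 ± 0.54 and 3.81 ± 0.54. Slc16a11, which shares bases with Slc16a13 in RefSeq, had 276, 20.6 and 4.59 CPM in FLAG RIP and 20.4, 12.5 and 9.64 CPM in hnRNP K RIP (-2.80 ± 0.95). The groups overlapped, with FLAG RIP 1 far above and FLAG RIP 3 below every hnRNP K value, and the call was not kept without FLAG RIP 1 or any hnRNP K RIP library (adjusted p from 0.0633 to 0.818). Without FLAG RIP 1 the direction turned, to 0.23.

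Vitamin, choline, lipid and haem carriers rose in 4 of 14 entries with hnRNP H1, 5 with hnRNP F, 6 with hnRNP K and 4 with La/SSB, and 0 fell. As shares, 28.6%, 35.7%, 42.9% and 28.6% were higher (background 18.7%, 16.5%, 15.7% and 8.51%). The background of lower calls was 17.1%, 13.6%, 14.9% and 5.36%. The choline carrier Slc44a1 on chromosome 5 has 2 entries with different profiles. The 4507-base entry (ENSRNOT00000083983) had 64, 78 and 31.4 CPM in FLAG RIP, 781, 962 and 824 with hnRNP H1, 758, 623 and 874 with hnRNP F, 325, 379 and 288 with hnRNP K and 338, 296 and 311 with La/SSB. All 12 specific values lay above the FLAG values. The Input values of 372, 479 and 347 CPM overlapped those of hnRNP K and lay above every La/SSB value. The log2 fold changes against FLAG RIP were 3.84 ± 0.32, 3.66 ± 0.32, 2.54 ± 0.30 and 2.40 ± 0.30. The 2830-base entry (ENSRNOT00000082108) had 225, 321 and 318 CPM with hnRNP H1 and 204, 410.3 and 448 CPM with hnRNP F, but 21.9, 29.1 and 26.7 CPM with hnRNP K, 19.2, 23.9 and 24.9 CPM with La/SSB, 29.3, 54.1 and 27 CPM in Input and 4.72, 8.82 and 15.1 CPM in FLAG RIP. Every La/SSB value of this shorter entry also lay below every Input value. Its log2 fold changes against FLAG RIP were 4.86 ± 0.45, 5.16 ± 0.45, 1.46 ± 0.39 and 1.19 ± 0.39, where the hnRNP K call was not kept under total-count scaling (adjusted p = 0.149) and the La/SSB call not kept without FLAG RIP 1 or 2 or any La/SSB RIP library (adjusted p from 0.0776 to 0.127). Slc48a1, the lysosomal haem carrier, rose with hnRNP K to 279, 276 and 291 CPM from 30.6, 38.3 and 119.7 CPM (2.18 ± 0.47). Slc27a1, a fatty acid importer, passed with none, at 7.37 to 70.5 CPM in FLAG RIP and 10.8 to 141 CPM in the specific libraries.

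Among nucleoside and nucleotide-sugar carriers, 4 of 9 entries rose and 1 fell with hnRNP H1, 5 rose and 1 fell with hnRNP F, 2 rose and 1 fell with hnRNP K, and 2 rose and 0 fell with La/SSB. That is 44.4%, 55.6%, 22.2% and 22.2% higher (background 18.7%, 16.5%, 15.7% and 8.51%). Lower were 11.1%, 11.1%, 11.1% and 0% (background 17.1%, 13.6%, 14.9% and 5.36%). Slc35a1, which brings CMP-sialic acid into the Golgi, was higher with hnRNP F (130.1, 388 and 212 CPM) than in FLAG RIP (95.8, 29.4 and 126 CPM) by 1.49 ± 0.46 and lower with hnRNP K (27, 25.4 and 26.3 CPM) by -1.66 ± 0.46. The first call was not kept without hnRNP F RIP 2 or under total-count scaling (adjusted p from 0.0627 to 0.15). Slc35a4 of the same Golgi family fell with hnRNP H1 to 23.2, 46.8 and 20.8 CPM (-2.51 ± 0.44) and with hnRNP F to 26, 57 and 30.3 CPM (-2.18 ± 0.43) from 215, 138 and 146 CPM in FLAG RIP, and had 226, 293 and 372 CPM with hnRNP K. Slc28a2 and Slc29a3, a sodium-coupled nucleoside importer and a lysosomal nucleoside carrier, chosen after their values were seen, rose with hnRNP H1. Slc28a2 went from 8.41, 4.91 and 3.81 CPM in FLAG RIP to 66.7, 85.5 and 104 CPM (3.84 ± 0.53). Slc29a3 went from 73, 66.6 and 378 CPM to 645, 629.5 and 702 CPM (1.88 ± 0.48), with FLAG RIP 3 above the other FLAG libraries. Slc29a1, the equilibrative nucleoside carrier, passed with none, at 12.4 to 23.9 CPM in FLAG RIP and 7.37 to 64 CPM in the specific libraries.

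Of the vesicular and lysosomal carriers, 3 entries in all, Slc18a2, which loads monoamines into vesicles, rose with hnRNP K to 57.9, 41.9 and 31.8 CPM from 0.288, 10.8 and 0 CPM (3.64 ± 1.17, adjusted p = 0.0255), a call not kept without hnRNP K RIP 1 or under total-count scaling (adjusted p from 0.0728 to 0.0811). The sialic acid exporter Slc17a5 rose with hnRNP K, by 2.65 ± 0.52, and was chosen after its values were seen.

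The 4 entries that are not carriers included Slc9a3r1, now named Nherf1, a scaffold that tethers ion carriers to the cytoskeleton. It had 162, 131 and 111 CPM in FLAG RIP and 45.7, 82.1 and 81.8 CPM in Input. It fell to 5.22, 14.1 and 12.3 CPM with hnRNP H1 (-3.72 ± 0.46) and 17.5, 33.3 and 10.6 CPM with hnRNP F (-2.74 ± 0.44) and was at 288, 331 and 315 CPM with hnRNP K (1.23 ± 0.42, adjusted p = 0.0324). The 9 hnRNP values fell into separate ranges, hnRNP K above and hnRNP H1 and F below. The rise with hnRNP K was not kept without FLAG RIP 2 or 3 or any hnRNP K RIP library or under total-count scaling (adjusted p from 0.0627 to 0.369). Slc4a1ap fell with hnRNP K to 5.87 to 7.81 CPM from 13.6 to 41 CPM (-1.81 ± 0.56), a call not kept without FLAG RIP 2 or any hnRNP K RIP library (adjusted p from 0.0555 to 0.0835). Slc7a6os fell with hnRNP H1 (-2.59 ± 0.93), a call not kept without FLAG RIP 1 or any hnRNP H1 RIP library (adjusted p from 0.0538 to 0.123).

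The largest fold changes were in entries the FLAG libraries barely held. Slc11a1, the metal carrier NRAMP1 of macrophage phagosomes, in an entry of 717 bases, had 53, 114 and 60 reads in the hnRNP H1 libraries, 30, 1 and 72 with hnRNP F, 11, 6 and 1 with hnRNP K and 40, 32 and 11 with La/SSB. It had 0 reads in every FLAG library and 0, 1 and 1 in Input. Against a floor of 3 reads over the FLAG group it was at least 180.3-fold higher with hnRNP H1, at least 92.4-fold with hnRNP F, at least 8.46-fold with hnRNP K and at least 36.4-fold with La/SSB. Macrophage markers, of which 3 of 6 had an entry, took 0.0581% to 0.0831% of reads with hnRNP H1 against 0.338% to 0.481% in FLAG RIP and 0.486% to 0.598% in Input, and their part in this result was not tested. The dicarboxylate carrier Slc13a3 also had no FLAG read, with 54, 9 and 30 reads with hnRNP K (at least 43.7-fold). The ascorbate carrier Slc23a1 had none either, with 14, 33 and 6 reads with hnRNP H1 (at least 42.1-fold). Slc16a4, with 0, 2 and 0 FLAG reads, had a pooled ratio of 209.7 (95% counting interval 57.2 to 1745) with hnRNP H1. The urate carrier Slc22a12 had 5, 2 and 0 reads in FLAG RIP, 156, 91 and 55 with hnRNP H1 and 213, 68 and 45 with La/SSB. The call of Slc11a1 with hnRNP K was not kept without hnRNP K RIP 1 (adjusted p = 0.0628). These intervals and floors cover counting error only. Here and in the next paragraph, La/SSB values include La/SSB RIP 1, in which no listed entry had fewer than 10 reads. The rises of sparse entries with La/SSB may depend on that minimum.

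Other sparsely counted entries were among the largest changes. Slc6a20, a proline carrier, had 0, 0 and 0 reads in FLAG RIP, 13, 2 and 17 with hnRNP H1, 0, 0 and 0 with hnRNP K and 13, 19 and 15 with La/SSB, at least 25.4-fold higher with hnRNP H1 and at least 20.6-fold with La/SSB, the latter call not kept without FLAG RIP 1 or 3 or any La/SSB RIP library (adjusted p from 0.0529 to 0.0605). Slc7a9, a cystine carrier of kidney, was at least 26.2-fold higher with hnRNP H1, on 18, 7 and 8 reads, a call not kept without FLAG RIP 1 or 3 or hnRNP H1 RIP 1 (adjusted p from 0.0567 to 0.0607). Slc6a16 had 0, 8 and 0 reads in FLAG RIP and 237, 54 and 141 with La/SSB. The sodium-proton exchangers Slc9a2 and Slc9a3 had 0, 1 and 0 and 0, 3 and 0 FLAG reads and pooled ratios with hnRNP K of 67.7 (95% counting interval 11.6 to 2728) and 62 (95% counting interval 20.8 to 305). Slc36a3 and Slc16a9 had 0, 1 and 0 and 0, 1 and 0 FLAG reads, and their pooled ratios with hnRNP K were 192 (95% counting interval 33.8 to 7629.7) and 87.4 (95% counting interval 15.1 to 3508). The hnRNP K call of Slc9a2 was not kept without FLAG RIP 1 or 3 or hnRNP K RIP 1 (adjusted p from 0.0533 to 0.0603), that of Slc9a3 not kept without FLAG RIP 1 or 3 or hnRNP K RIP 1 or 2 or under total-count scaling (adjusted p from 0.0619 to 0.0884) and that of Slc16a9 not kept without FLAG RIP 1 or 3 or hnRNP K RIP 1 or under total-count scaling (adjusted p from 0.0501 to 0.142).

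Among the Slc25 falls, Slc25a12, an aspartate-glutamate carrier, had 54.1, 9.63 and 32.7 CPM in FLAG RIP, 5.15 to 9.45 CPM with hnRNP F, 4.27 to 8.91 CPM with hnRNP K and 6.86 to 8.98 CPM with La/SSB. Its hnRNP F call was not kept without FLAG RIP 1 or hnRNP F RIP 1 or 2 (adjusted p from 0.0569 to 0.0892), its hnRNP K call not kept without FLAG RIP 1 or hnRNP K RIP 1 or 3 (adjusted p from 0.0618 to 0.0828) and its La/SSB call not kept without FLAG RIP 1 or 3 or any La/SSB RIP library or under total-count scaling (adjusted p from 0.0667 to 0.161). The phosphate carrier entry Slc25a3 (ENSRNOT00000011494) fell from 79.9, 20.3 and 20.5 CPM to 2.25 to 13.1 CPM with hnRNP F and 3.62 to 9.07 CPM with hnRNP K. The hnRNP F call was not kept without FLAG RIP 1 or hnRNP F RIP 1 or 2 (adjusted p from 0.0794 to 0.192) and the hnRNP K call not kept without FLAG RIP 1 or hnRNP K RIP 1 or 2 (adjusted p from 0.0713 to 0.135). Slc25a35 and Slc25a46 fell with La/SSB, from 45.5 to 79.8 and 97.4 to 152 CPM to 7.01 to 23.9 and 27 to 60.5 CPM. The first was not kept without FLAG RIP 3 or any La/SSB RIP library or under total-count scaling (adjusted p from 0.0592 to 0.15) and the second not kept without La/SSB RIP 1 (adjusted p = 0.0818). Of the well-known members not yet named, the carnitine carrier Slc25a20 had 49.8 to 173 CPM in FLAG RIP and 237 to 263 CPM with hnRNP H1, the oxoglutarate carrier Slc25a11 had 10.7 to 17.7 and 7 to 8.85 CPM, and the sulphate carrier Slc26a2 had 1.93 to 71.7 and 55.6 to 66.9 CPM.

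The second question was whether the proteins differed among themselves. Of 196 Slc entries 65 differed among the 4 specific RIPs (33.2%, background 30.7%), so solute carriers differed about as often as other transcripts. Of the 65, 35 were highest with hnRNP K, 14 with hnRNP H1, 13 with hnRNP F and 3 with La/SSB. The same split over all entries is not given here, so this one cannot be read as particular to solute carriers. Of the 8 smallest p-values, 7 belonged to Slc41a1 (adjusted p = 1.2e-07), Slc39a7 (1.23e-07), Slc9a3r1 (2.67e-07), Slc15a3 (3.26e-07), the shorter Slc44a1 entry (3.71e-07), Slc35a4 (1.35e-05) and Slc25a44 (2.48e-05), all from the edgeR test over 3 contrasts. Metal carriers passed in 13 of 24 entries (54.2%) and organic ion carriers in 4 of 24 (16.7%). Fitted on the 12 specific libraries alone, 111 Slc entries passed. The share of all entries passing in that fit is not given here, so this count is not read as a trait of solute carriers.

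**Figure D3:**
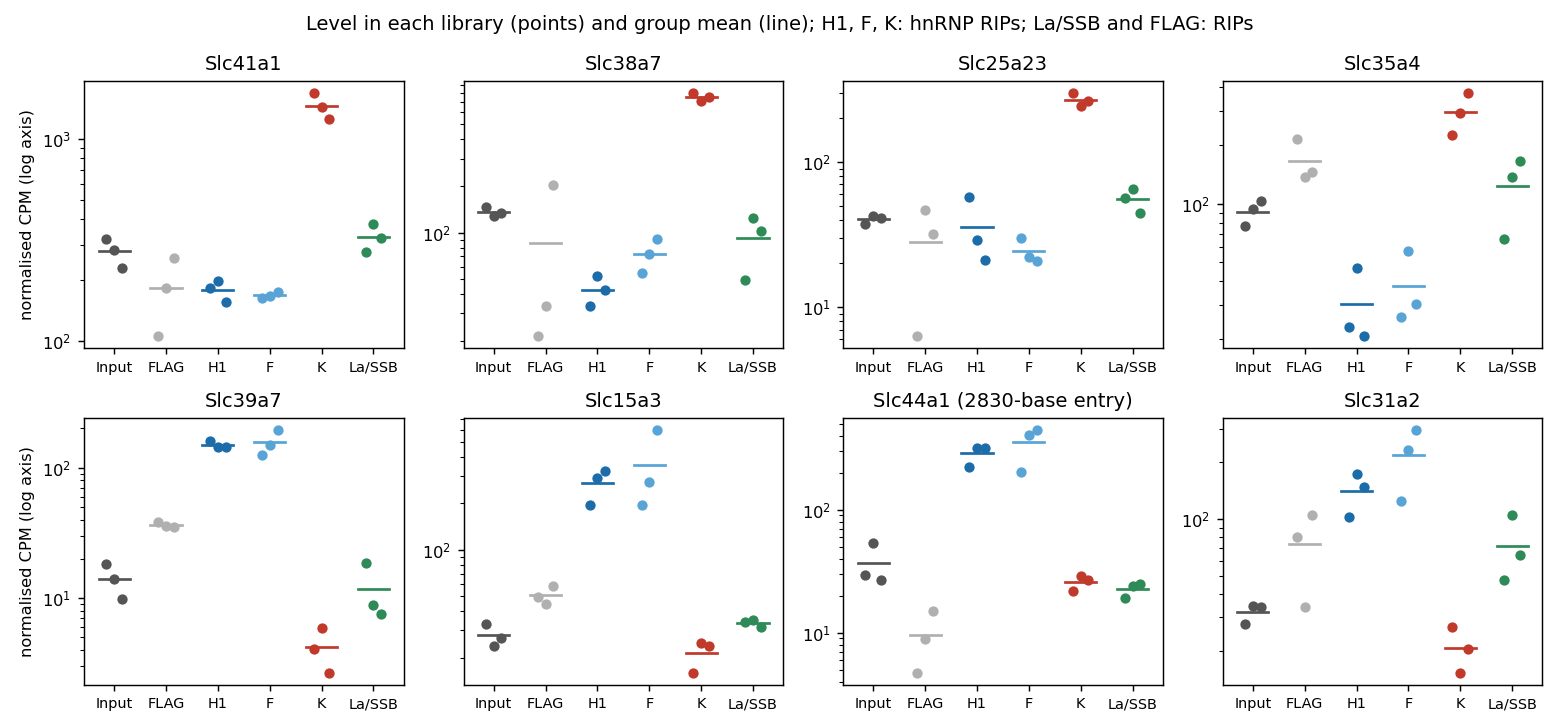
Normalised CPM (log axis) of 8 solute carriers in each of the 18 libraries, with a line at each group mean. The upper 4 have their highest group mean in hnRNP K RIP and the lower 4 their highest group means in hnRNP H1 and hnRNP F RIP, with Slc41a1 at 1244 to 1678 CPM in hnRNP K RIP against 106 to 381 CPM elsewhere.

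hnRNP K against the mean of hnRNP H1 and F gave 41 Slc entries higher and 33 lower (20.9% and 16.8%, background 16.6% and 15.8%). The largest rises included Slc4a11 (5.39 ± 1.62) and Slc9a3r1 (4.46 ± 0.36). Slc4a11 had 0, 1 and 0 reads with hnRNP H1, 0, 0 and 3 with hnRNP F and 120, 12 and 5 with hnRNP K, and its call was not kept without hnRNP K RIP 1 (adjusted p = 0.238). The 3 with the largest fall were Slc39a7 (-5.11 ± 0.46), the fatty acid carrier-family member Slc27a3 (-4.99 ± 1.82) and Slc46a3 (-4.46 ± 1.54). The call of Slc27a3 was not kept without hnRNP H1 RIP 1 or 3 or hnRNP F RIP 2 or 3 or hnRNP K RIP 1 or 3 (adjusted p from 0.06 to 0.152). That of Slc46a3 was not kept without hnRNP H1 RIP 3 or hnRNP F RIP 3 or any hnRNP K RIP library (adjusted p from 0.0527 to 0.122). Slc41a1 was higher with hnRNP K by 3.13 ± 0.24, Slc38a7 by 3.83 ± 0.49 and Slc35a4 by 3.198 ± 0.35. Lower were Slc15a3 (-3.77 ± 0.38) and the shorter Slc44a1 entry (-3.55 ± 0.40). Sugar carriers were higher with hnRNP K in 6 of 15 entries and lower in 0, and mitochondrial Slc25 entries in 9 and 4 of 33. Under total-count scaling the Slc counts were 36 higher and 35 lower (background 13.6% and 18.2%).

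Between the paralogues hnRNP H1 and hnRNP F, 0 of 196 Slc entries passed the edgeR test (background 0%), 13 had an unadjusted p under 0.05, and DESeq2 called 0 (73 of all entries). Without the share of all entries at the unadjusted cut, which is not given here, the 13 cannot be set against a background. A difference between these 2 proteins was not detectable at this depth and spread. The median log2 difference over the Slc entries, hnRNP H1 minus hnRNP F, was 0.09, with quartiles of -0.58 and 0.78.

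hnRNP K against La/SSB gave 15 Slc entries higher and 9 lower (7.65% and 4.59%, background 7.33% and 4.85%). This split changed with the scaling: with total counts it was 3 higher and 25 lower (background 2.06% and 17.5%), where the median of all entries moved from -0.14 to -1.04. The 3 highest calls were Slc38a7, Slc9a3r1 and the melanosome exchanger Slc24a5 (2.41 ± 0.57), and the 3 lowest Slc6a20, Slc4a1ap (-2.26 ± 0.57) and Slc30a9 (-1.93 ± 0.48). Of these, the call of Slc6a20 was not kept without any La/SSB RIP library or any hnRNP K RIP library (adjusted p from 0.0668 to 0.11), that of Slc24a5 not kept without La/SSB RIP 1 or under total-count scaling (adjusted p from 0.0517 to 0.071), that of Slc30a9 not kept without hnRNP K RIP 1 or 3 (adjusted p from 0.0612 to 0.0663) and that of Slc4a1ap not kept without La/SSB RIP 1 or any hnRNP K RIP library (adjusted p from 0.051 to 0.111). Slc38a7 (3.11 ± 0.62), Slc9a3r1 (2.51 ± 0.43), Slc41a1 (2.23 ± 0.29), Slc25a23 (2.35 ± 0.54, not kept under total-count scaling (adjusted p = 0.0775)), Slc25a24 (2.14 ± 0.45) and Slc31a1 (1.71 ± 0.37) were the 6 calls kept with any 1 library left out, all higher with hnRNP K; the last 2 were lost under total-count scaling (adjusted p = 0.062 and 0.109). Without hnRNP K RIP 1, 2 or 3 the number called was 9, 12 and 12, and without La/SSB RIP 1, 2 or 3 it was 12, 13 and 15. Fitted on these 6 libraries alone, 78 of 187 Slc entries passed (29.4% higher and 12.3% lower, background 17.3% and 15.2%).

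A last set of comparisons was with unprecipitated axoplasm RNA. FLAG RIP against Input gave 6 Slc entries higher and 24 lower (3.06% and 12.2%; background 4.49% and 7.39% of the 13263 entries tested), and the median log2 fold change was -0.76 where that of all entries was 0.11. Among the falls kept with any 1 library left out were those of Slc6a6, from 63.2, 68.9 and 79.1 CPM in Input to 9.51, 26 and 16 CPM (-2.04 ± 0.35), of the longer Slc44a1 entry, from 372, 479 and 347 to 64, 78 and 31.4 CPM (-2.79 ± 0.29), and of Slc41a2 (-4.09 ± 0.74) and Slc16a13 (-3.35 ± 0.50). The FLAG and Input ranges of these members did not overlap. Slc3a2, Slc1a5, Slc39a7, Slc16a11, Slc25a12 and Slc17a9 were the 6 that rose. Slc3a2 rose by 1.83 ± 0.48, a call not kept without Input 1 or 3 or FLAG RIP 3 (adjusted p from 0.0615 to 0.0896), and Slc39a7 by 1.38 ± 0.40, a call not kept without Input 2 or 3 (adjusted p from 0.082 to 0.111). The other 4 also lost their calls without at least 1 library. The number of Slc calls was 13 to 16 without an Input library and 57 without FLAG RIP 2. With only FLAG RIP and Input in the fit, 0% of Slc entries were higher and 0.602% lower (background 0.0686% and 0.634%). The larger share of falls was thus not seen in that fit. Erythrocyte markers, 3 genes, took 0.706% to 2.14% of reads in FLAG RIP and 0.343% to 0.808% in Input, and their part was not tested.

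hnRNP H1 RIP had 25 Slc entries above Input and 14 below (12.8% and 7.14%, background 12.8% and 10.2%), hnRNP F RIP 24 and 13 (12.2% and 6.63%, background 10.8% and 7.28%) and hnRNP K RIP 19 and 5 (9.69% and 2.55%, background 6.56% and 6.24%). The share of higher calls against Input was thus near the background for hnRNP H1 and hnRNP F. The medians were 0.29, 0.17 and 0.32. With total counts these splits became 17 and 27, 16 and 30, and 5 and 19, with a background of 8.33% and 18.5%, 6.96% and 13.9%, and 2.22% and 15.1%. Slc39a7 (3.42 ± 0.43 and 3.49 ± 0.43), Slc15a3 (3.28 ± 0.39 and 3.67 ± 0.39), the shorter Slc44a1 entry (2.97 ± 0.42 and 3.27 ± 0.42), Slc31a1 (2.97 ± 0.38 and 2.60 ± 0.38), Slc39a1 (1.84 ± 0.30 and 2.11 ± 0.31) and Slc6a6 (2.41 ± 0.35 and 1.76 ± 0.34) were above Input with hnRNP H1 and F. With hnRNP K, Slc41a1 (2.38 ± 0.28), Slc38a7 (2.47 ± 0.57), Slc25a23 (2.73 ± 0.52) and Slc35a4 (1.70 ± 0.40, not kept under total-count scaling (adjusted p = 0.0942)) were above Input. Below Input with hnRNP H1 were Slc25a5 (-2.59 ± 0.53), Slc25a39 (-2.12 ± 0.53), Slc2a1 (-1.57 ± 0.33) and Slc35a4 (-1.59 ± 0.41). These calls were kept with any 1 library left out. The number called was 19 for hnRNP F without Input 2, 22 without Input 1 and 20 without hnRNP F RIP 3, and 12 to 16 for hnRNP K without any 1 of its own or the Input libraries.

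La/SSB RIP against Input gave 0 of 196 Slc calls with edgeR (6 of 13263 entries in all, 0.0452%, with 0.0226% higher and 0.0226% lower). At an unadjusted p under 0.05 there were 18 Slc entries, and DESeq2 called 0. Without the share of all entries at that unadjusted cut, which is not given here, the 18 cannot be set against a background. The median Slc log2 fold change was 0.22.

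**Figure D4:**
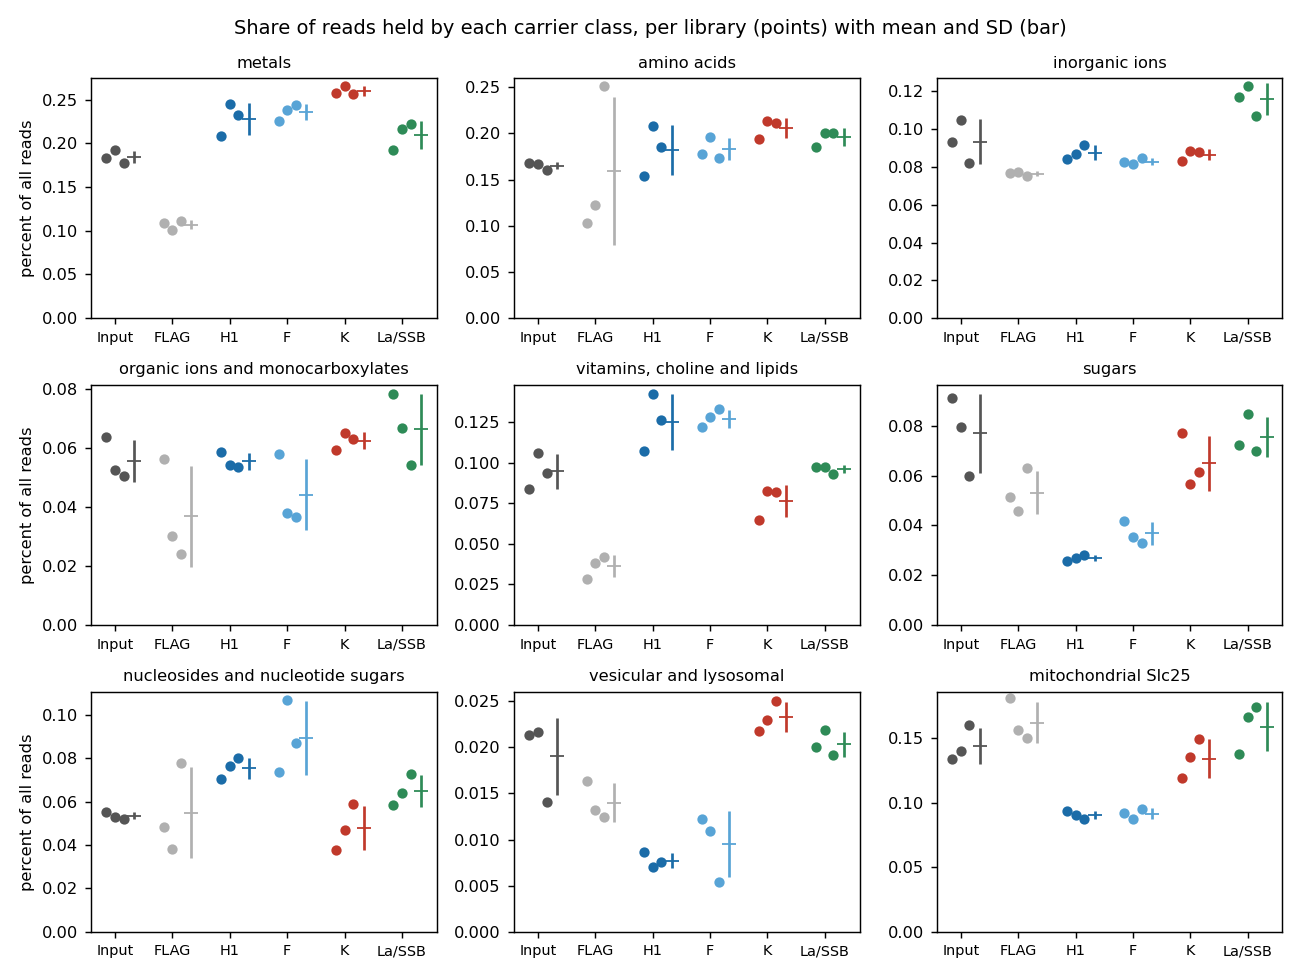
Percent of all reads held by each carrier class in each of the 18 libraries (points), with the group mean and SD (n = 3) beside them. Metal carriers hold 0.101% to 0.111% in the FLAG libraries and at least 0.178% in every other library, and mitochondrial Slc25 entries are lowest with hnRNP H1 and hnRNP F.

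All Slc entries together held 0.909% ± 0.033 of reads in Input (SD, n = 3), 0.734% ± 0.09 in FLAG RIP, 0.894% ± 0.065 with hnRNP H1, 0.933% ± 0.024 with hnRNP F, 0.997% ± 0.05 with hnRNP K and 1.03% ± 0.041 with La/SSB. The hnRNP F, hnRNP K and La/SSB libraries were above every FLAG library and those of hnRNP H1 overlapped them. Vitamin, choline and lipid carriers went from a mean of 0.0362% in FLAG RIP to 0.125% with hnRNP H1 and 0.127% with hnRNP F, against 0.0946% in Input. Sugar carriers held 0.0256% to 0.0281% with hnRNP H1 and 0.0331% to 0.0418% with hnRNP F, below the FLAG range of 0.0456% to 0.0629%. Such sums are not TMM-scaled and weigh abundant entries, here Slc2a1, most. The median log2 fold change of the 15 sugar entries against FLAG RIP was 0.49 with hnRNP H1 and 0.63 with hnRNP F. All entries had -0.10 with both, so the sum does not stand for a fall of most sugar carriers.

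A list of 44 transporters and channels outside the Slc names, among them ATPases, ABC carriers, Slco organic anion carriers and aquaporins, was set beside the Slc entries, and the difference between the lists was not tested. Of their 47 tested entries, 16 rose and 3 fell against FLAG RIP with hnRNP H1 (34% and 6.38%, background 18.7% and 17.1%), 16 and 1 with hnRNP F (34% and 2.13%, background 16.5% and 13.6%), 17 and 0 with hnRNP K (36.2% and 0%, background 15.7% and 14.9%), and 8 and 0 with La/SSB (17% and 0%, background 8.51% and 5.36%). The median log2 fold changes were 0.56, 0.62, 0.60 and 0.67, below the Slc medians of 0.86, 0.77, 1.14 and 0.78. Against Input, FLAG RIP had 0 higher and 10 lower of 48 (0% and 20.8%, background 4.49% and 7.39%).

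Fold changes against FLAG RIP varied with transcript length over all entries. Slc transcripts have a median of 2736 bases against 2224 for all entries, and 23, 90 and 83 of them fall into the short, middle and long classes of all tested entries, cut at 1663 and 2969 bases into 3 nearly equal sets. Over all entries the median log2 fold change of hnRNP K against FLAG RIP was -0.66, -0.13 and 0.37 in these classes, and over Slc entries it was 0.83, 0.58 and 1.70. For hnRNP H1 the medians were -0.61, -0.08 and 0.21 over all entries and 0.65, 0.89 and 0.77 over Slc entries. For hnRNP F they were -0.41, -0.04 and 0.10 over all entries and 0.15, 0.93 and 0.76 over Slc entries. With La/SSB they were -0.31, -0.15 and 0.07 over all entries and 0.28, 0.61 and 1.08 over Slc entries. The Slc medians thus rose from class to class with La/SSB. With hnRNP H1 and F the middle class had the highest Slc median, and with hnRNP K the longest class had it. The part of length in the Slc changes was not tested.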

How the data were processed

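RNA from rat sciatic axoplasm, 7 days after a crush, was sequenced from 18 libraries in 6 groups of 3, grouped by the labels' titles. The authors' deposited table gives, per transcript, a read count with 1 added to every value and an FPKM value. Deposited FPKM were reproduced from the count minus 1, the transcript length and the table total (largest relative deviation 2.4e-14), so 1 was subtracted. CASAVA 1.8.2 and edgeR are named in the submitters' processing notes. The sources used here do not give the aligner, genome build or strand of counting. The table's 18 columns of normalised counts were not used.

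Reads were tested with edgeR 4.0.16 in R 4.3.3 (quasi-likelihood test, filterByExpr by group, TMM scaling, Benjamini-Hochberg adjusted p under 0.05). The 15 precipitated libraries were fitted together for comparisons with FLAG RIP and among antibodies, and all 18 for comparisons with Input. All 196 Slc entries passed both filters, so no member was lost to them. Carriers absent from the deposited table are not covered, and how its rows were chosen is not known here. Levels within a gene are TMM-scaled CPM and levels between genes FPKM. The fit was tested on simulated data with the same spread per transcript in every group. That test does not cover the wider spread of the FLAG libraries. DESeq2 1.42.0 and other scalings, filters, sample sets, a replicate block and leaving out each library were tried as alternatives. A floor is 3 reads over the group, and intervals are 95% counting intervals.

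The members, lists and tests were chosen with earlier results of these data known. Named entries are, per comparison with FLAG RIP, the 8 highest and 6 lowest called entries whose 3 libraries all lie on one side of the FLAG libraries, the 8 smallest p among the specific RIPs, the 3 highest and 3 lowest calls per contrast between them, the 10 highest in Input and 41 well-known members. Besides those said to be so where they are described, Slc11a2, Slc16a11, Slc17a9, Slc2a12, Slc23a2, Slc25a39, Slc30a7, Slc30a10, Slc31a1, Slc39a9, Slc39a10 and Slc41a2 were named after their values were seen. Some members are counted but not reported here by name. No 2 libraries held identical counts. Same-numbered libraries correlated at 0.01 to 0.18 in their deviations from group means. Every such correlation exceeded 0.1 for 1 of 15 pairs of groups, hnRNP K and La/SSB, so the numbers were not taken to pair the other groups. The main fit used no pairing for hnRNP K and La/SSB either. With a replicate block, 9.18% of Slc entries were higher with hnRNP K than with La/SSB and 4.59% lower. In the main fit these were 7.65% and 4.59%, and the background with the block is not given here.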

Additional observations from a re-analysis of the deposited data

Results flagged for a closer look

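For 7 entries the difference between hnRNP K RIP and the mean of hnRNP H1 and hnRNP F RIP passed the edgeR test, and the entry was called higher against FLAG RIP with one of these proteins and lower with another. For 6 of these, the log2 difference, hnRNP K minus the mean of the others, is given. It was -5.11 for Slc39a7, -3.77 for Slc15a3, -2.996 for Slc31a2 and -2.37 for Slc35a1. It was 4.46 for Slc9a3r1 and 1.76 for Slc2a1. All 3 hnRNP K libraries lay on the stated side of all 6 hnRNP H1 and F libraries for each of the 6. Of all entries, 3.38% were called in both directions against FLAG RIP, near the share among Slc entries. The number of such entries is thus not particular to solute carriers.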

How the results depend on the processing

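With only the groups compared in the fit, 36 of 168 entries were called against FLAG RIP with hnRNP H1, 18 of 158 with hnRNP F, 37 of 177 with hnRNP K and 2 of 185 with La/SSB. These were 17.3% higher and 4.17% lower, 8.86% and 2.53%, 17.5% and 3.39%, and 1.08% and 0%. The background in these fits was 11.8% and 9.71%, 8.05% and 4.48%, 9.36% and 10.4%, and 0.308% and 0.15%. The counts were then 78 of 187 for hnRNP K against La/SSB (29.4% higher and 12.3% lower, background 17.3% and 15.2%) and 111 for the difference among the 4 specific RIPs. They were 101 of 182 for hnRNP K against the mean of hnRNP H1 and F (30.8% and 24.7%, background 21.9% and 22%), and 0 for hnRNP H1 against hnRNP F. Against Input they were 71 of 173 for hnRNP H1 (26% and 15%, background 20.2% and 15.9%) and 42 of 168 for hnRNP F (17.9% and 7.14%, background 14% and 8.01%). For hnRNP K against Input they were 70 of 179 (29.6% and 9.5%, background 17.8% and 15.7%). FLAG RIP had 1 of 166 (background 0.0686% and 0.634%) and La/SSB 1 of 183 (background 0.399% and 0.335%). Leaving out FLAG RIP 1 and 3 together, chosen after seeing the data, hnRNP K had 52 calls and La/SSB 15, and the spread of that lone library was assumed to be that of the other groups. DESeq2 called 53 for FLAG RIP against Input. With each library left out in turn, calls against FLAG RIP ranged from 58 to 87 with hnRNP H1, 56 to 79 with hnRNP F, 46 to 97 with hnRNP K and 15 to 62 with La/SSB. They ranged from 0 to 0 for hnRNP H1 against hnRNP F, 54 to 74 for hnRNP K against the mean of the others, 9 to 15 for hnRNP K against La/SSB and 53 to 65 for the difference among the 4. Against Input they ranged from 13 to 57 for FLAG RIP, 30 to 34 with hnRNP H1, 19 to 33 with hnRNP F, 12 to 16 with hnRNP K and 0 to 0 with La/SSB. With the replicate block, hnRNP H1, hnRNP F, hnRNP K and La/SSB had 72, 70, 80 and 37 calls against FLAG RIP and 42, 36, 26 and 0 against Input. FLAG RIP against Input had 37, hnRNP K against the mean of the others 73, hnRNP K against La/SSB 27, the difference among the 4 specific RIPs 66 and hnRNP H1 against hnRNP F 0. As a share of summed FPKM in place of reads, Slc entries held 0.563% in Input, 0.489% in FLAG RIP, 0.703% with hnRNP H1, 0.693% with hnRNP F, 0.847% with hnRNP K and 0.746% with La/SSB, and carriers alone held 0.9% of reads with hnRNP F. Shares with 1 library left out ranged from 0.893% to 0.926% in Input, 0.683% to 0.769% in FLAG RIP, 0.865% to 0.929% with hnRNP H1, 0.923% to 0.946% with hnRNP F, 0.977% to 1.02% with hnRNP K and 1.01% to 1.05% with La/SSB. Of 193 calls of single entries, 66 were lost with FLAG RIP 1 and 3 left out together, 55 with only the groups compared and 28 under total-count scaling, and 0 without a filter on low counts, and of the named values 1 reversed in direction, Slc16a11 with hnRNP K against FLAG RIP, which ranged from -3.37 to 0.23 with 1 library left out and was positive without FLAG RIP 1. Entries with few reads in FLAG RIP are limited by depth. The cause of these shifts was not tested.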
